A study of Mus musculus with 10 samples.

Results

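The genes described here are 36 genes of the amino acid, endoplasmic reticulum (ER) and oxidative stress responses, measured in cultured mouse Wolffian ducts. They were listed by gene symbol, with earlier results of these data known, and fall into 3 arms. The ATF4 arm has 19 genes, the ER chaperone and degradation arm 8, and the NRF2 arm 9. Of these, 35 had a named probe set among 19505 genes on the array, and Pdia4 was not analysed here. No filter on low signal was applied, so all 35 were tested.

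The ducts were taken from embryos of mice 16.5 days post-coitum and kept in air-liquid culture for 72 h. There were 10 arrays in 3 groups. The 3 vehicle arrays were cultures in medium, the 4 SAG arrays were cultures with 0.5 µM SAG, an agonist of Smoothened that activates the hedgehog pathway, and the 3 cyclopamine arrays were cultures with 25 µM cyclopamine, a Smoothened inhibitor that blocks it. The sample titles name the tissue Pronephros and the protocols name it Wolffian duct. Strain, genotype, sex, the number of ducts per sample and whether the control medium held solvent were not stated in the labels. The labels call the samples biological replicates without naming an animal, so p-values measure the spread between these samples. Values are log2 signals of a probe set. They show differences of 1 gene between arrays and not which of 2 genes is more abundant.

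Cells answer a shortage of amino acids, or misfolded protein in the ER, by phosphorylating the initiation factor eIF2alpha, which slows translation in general but lets the transcription factor ATF4 be made. ATF4 then raises genes that make and import amino acids and, when stress persists, genes such as Ddit3 (CHOP) and Trib3. Misfolded protein in the ER also activates ATF6 and IRE1-XBP1, which raise chaperones and the machinery that removes misfolded proteins. Oxidants and electrophiles free the transcription factor NRF2 (encoded by Nfe2l2) from its inhibitor KEAP1, and NRF2 raises genes for glutathione and thioredoxin metabolism. Slc7a11, the cystine importer, and Cth, which makes cysteine from cystathionine, supply the cysteine for glutathione and so lie between the amino acid and the oxidative responses.

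DNA elements of these factors are printed from the promoters of the members in which a search found them, so that the values can be read beside the sites. Promoter windows of 250 bases before to 50 bases after the gene start (RefSeq, mouse build GRCm38.p6) were given for 31 of the 36 genes. Cth, Gclc, Gsr, Hmox1 and Slc7a5 had none. Both strands were searched for 4 motifs, and only stretches upstream of the start are shown, 5′ to 3′ on the gene's strand, with the matches on either strand in capitals. A match is a description of the letters, not of binding.

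The ER stress response element, CCAAT and CCACG separated by any 9 bases, is the classical ATF6 site and was found in 0.119% of 32851 promoters of this length (39) and in 2 of the 8 ER arm genes. A second form, ATTGG and CCACG separated by any 1 base, was found in 0.0365% (12) and in 1 of the 8. The stretches are from Hsp90b1 at chr10:86705520-86705669 on the minus strand, Hspa5 at chr2:34771990-34772059 on the plus strand and Herpud1 at chr8:94386339-94386398 on the plus strand.
Hsp90b1: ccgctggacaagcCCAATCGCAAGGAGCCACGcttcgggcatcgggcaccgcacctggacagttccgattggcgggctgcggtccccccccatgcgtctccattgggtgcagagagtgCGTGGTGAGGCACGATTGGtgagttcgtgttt
Hspa5: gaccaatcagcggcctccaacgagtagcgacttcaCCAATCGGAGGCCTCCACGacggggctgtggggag
Herpud1: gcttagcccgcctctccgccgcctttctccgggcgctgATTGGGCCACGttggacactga
Hsp90b1 carries 2 matches on opposite strands, and Hspa5 and Herpud1 carry 1 each.

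The C/EBP-ATF response element, TTNCATCA, the site through which ATF4 acts with C/EBP proteins, was found in 3.97% of promoters (1304) and in 5 of the 17 ATF4 arm genes with a window. It was also found in Herpud1. The stretches are from Slc7a11 at chr3:50443634-50443703 on the minus strand, Chac1 at chr2:119351022-119351081 on the plus strand, Atf3 at chr1:191183414-191183473 on the minus strand and Asns at chr6:7693210-7693269 on the minus strand. The match in the fifth gene, Trib3, lies after the start and is not printed.
Slc7a11: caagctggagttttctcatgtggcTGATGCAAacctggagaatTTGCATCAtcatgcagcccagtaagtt
Chac1: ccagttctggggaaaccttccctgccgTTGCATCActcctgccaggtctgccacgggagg
Atf3: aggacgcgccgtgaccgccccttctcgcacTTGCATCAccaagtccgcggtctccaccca
Asns: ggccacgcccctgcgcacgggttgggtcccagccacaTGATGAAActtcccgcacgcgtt
Slc7a11 again carries 2 matches on opposite strands.

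The core of the antioxidant response element, TGACNNNGC, the site of NRF2, is short and was found in 12.4% of promoters (4071). It was in 4 of the 6 NRF2 arm genes with a window (Nfe2l2, Srxn1, Gclm and Txnrd1), in 6 of the 17 ATF4 arm genes and in 2 of the 8 ER arm genes. None of the 4 motifs was in the window of Nqo1. The stretches shown are from 2 members that differed between groups, Gclm at chr3:122245397-122245456 and Txnrd1 at chr10:82859086-82859145, both on the plus strand.
Gclm: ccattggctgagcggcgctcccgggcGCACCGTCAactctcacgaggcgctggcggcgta
Txnrd1: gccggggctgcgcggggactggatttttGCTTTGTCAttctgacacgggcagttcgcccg

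The hedgehog targets moved as labelled. Gli1, Ptch1 and Hhip were higher with SAG than vehicle by 1.51, 1.56 and 4.55 on the log2 scale, and with cyclopamine they fell by 6.93, 4.12 and 5.95 (limma adjusted p between 1.57e-06 and 0.0374). The Gli1 difference under SAG no longer passed in 7 of 10 fits that left out 1 array (without vehicle 2 or 3, SAG 1, 2, 3 or 4, or cyclopamine 3), with adjusted p from 0.0530 to 0.204. Markers of the cell types of the explant also differed in level between groups. The mean log2 level of 12 duct epithelium markers (Cdh1, Epcam, keratins, Pax2, Pax8 and others) was 11.2 to 12.1 in vehicle, 10.1 to 10.8 in SAG and 12.6 to 13.4 in cyclopamine. None of the 12 was below the lower quartile of all probe sets, 5.19. That of 9 of 10 listed mesenchyme markers was 14.7 to 14.8, 14.8 to 15.0 and 13.9 to 14.2. That of 6 smooth muscle markers was 12.9 to 13.5, 12.5 to 12.8 and 9.68 to 10.4. In whole explants, more or fewer cells of a type and more or less RNA per cell cannot be told apart.

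The 3 arms did not move as 1 block. With cyclopamine, the NRF2 targets Nqo1 and Txnrd1 rose and the ER chaperone Hsp90b1 fell against vehicle. With SAG, none of the 35 passed against vehicle, while the median of the ATF4 arm was 0.46 higher. The mean level of that arm on vehicle 3 lay within the range of the SAG arrays. Between the 2 compounds, 7 members passed. Hsp90b1 and the amino acid transporter Slc7a5 were higher with SAG, and Cth, Gclm, Nqo1, Psat1 and Txnrd1 were higher with cyclopamine.

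Across all probe sets, 0.730% passed for SAG against vehicle (limma, Benjamini-Hochberg adjusted p under 0.05), 0.450% as higher and 0.279% as lower, and 0 of 35 members did, with 6 under an unadjusted p of 0.05. Higher calls made up 61.7% of all calls here, and 72.4% with each array centred on its median. Arrays of SAG and vehicle did not overlap for 6 members against 12.9% of all probe sets. Of these, SAG was higher for 4 members and lower for 2, against 6.25% and 6.63% of probe sets. For cyclopamine against vehicle, 3 members (8.57%) passed against 5.12% of probe sets, and 9 were under an unadjusted p of 0.05. Of the 3, 2 rose and 1 fell, against 2.17% and 2.95% of probe sets. Arrays did not overlap for 8 members against 23.1%, with cyclopamine higher for 6 and lower for 2, against 11.2% and 11.9%. Leaving out cyclopamine 2 raised the count to 5, by adding Cth and Gclm. For SAG against cyclopamine, 7 members (20%) passed against 11.3%. With SAG 2 were higher and 5 lower, against 5.42% and 5.92%. Arrays did not overlap for 14 members against 21.2%, with SAG higher for 7 and lower for 7, against 10.7% and 10.5%. The median size of the log2 difference among members was 0.39, 0.37 and 0.61 in the 3 comparisons, against 0.16, 0.21 and 0.21 among all genes. These backgrounds hold dim probe sets too, while none of the 35 members was below the lower quartile of all probe sets, 5.19. With the dimmest 25% left out, 187, 1253 and 2708 probe sets passed in place of 162, 1136 and 2518, out of fewer tested. The members that passed were still 0, 3 and 7, so the shares above overstate their excess over probe sets of like signal. The comparisons share arrays: both compounds are set against the same 3 vehicle arrays, and the direct comparison uses the same SAG and cyclopamine arrays again.

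**Figure D1:**
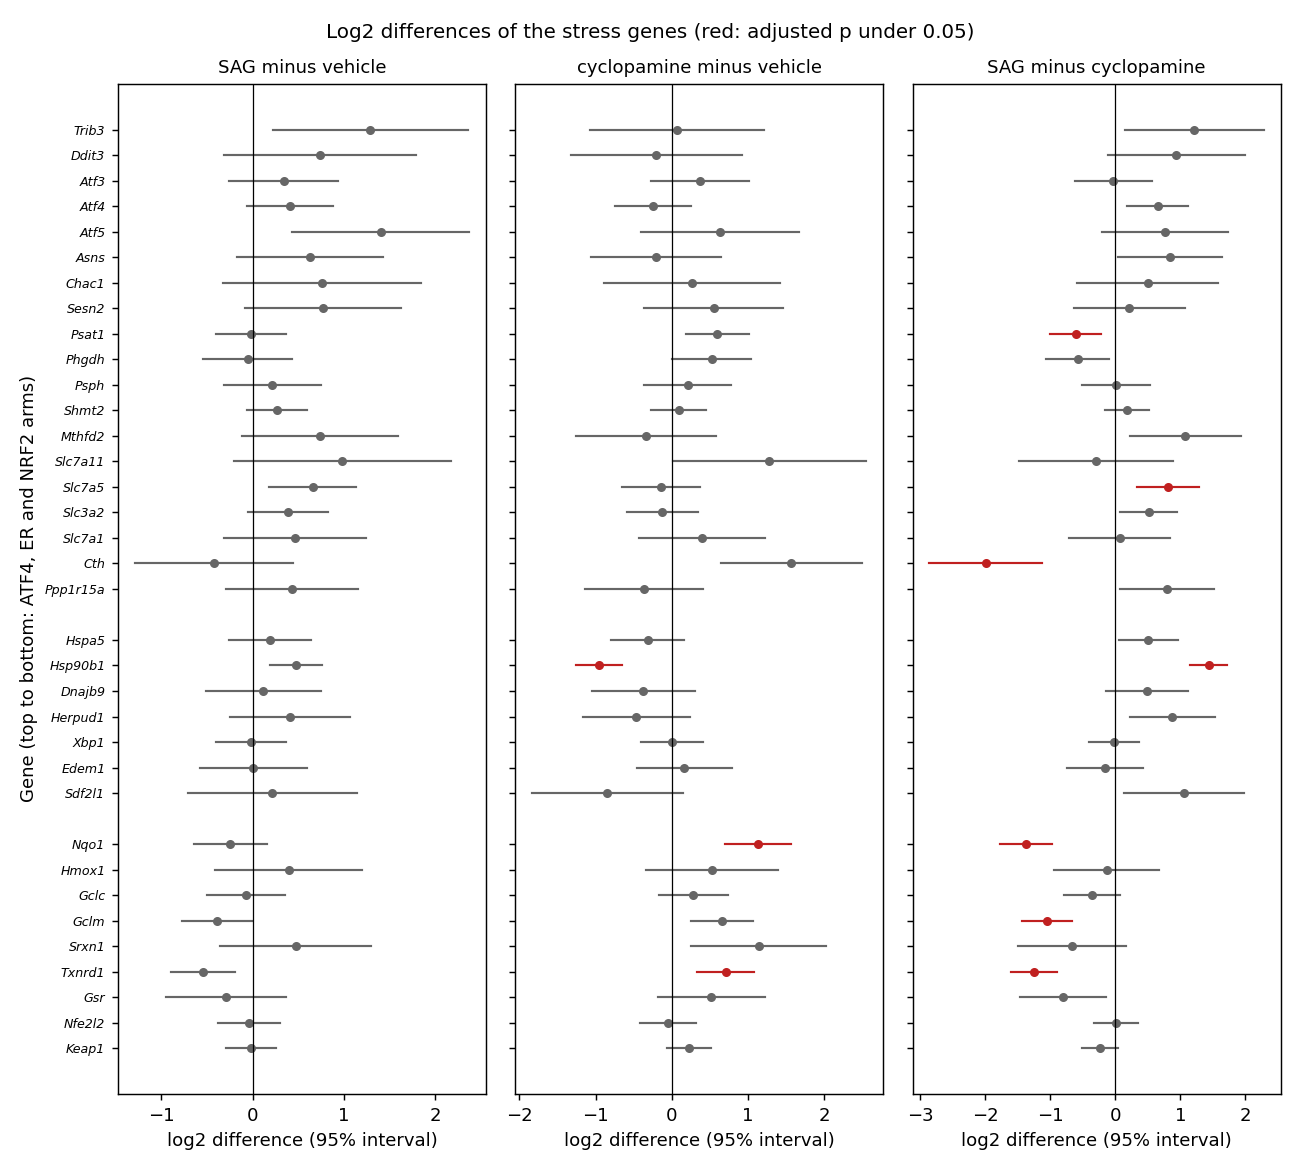
Log2 difference (x axis) of each of the 35 genes (y axis, by arm) with its 95% interval, in the panels SAG minus vehicle, cyclopamine minus vehicle and SAG minus cyclopamine; red marks a limma adjusted p under 0.05. No gene is red for SAG against vehicle, 3 are for cyclopamine against vehicle and 7 for SAG against cyclopamine.

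In the ATF4 arm, 0 of 19 genes passed against vehicle with SAG and 0 with cyclopamine (3 and 4 under an unadjusted limma p of 0.05). The differences were positive for 16 of 19 under SAG, with a median of 0.46 beside 0.01 over all genes. It was 0.37 without SAG 1 and 0.75 without vehicle 3. Under cyclopamine 12 were positive, with a median of 0.21 beside 0.02. It was -0.0013 with 9 positive without cyclopamine 1, 0.46 with 17 positive without cyclopamine 2, and 0.42 without vehicle 3. Without vehicle 2 or cyclopamine 3 it was 0.085 or 0.077. Between the compounds 14 were higher with SAG, with a median of 0.50 beside 0.01. Of the 19, 3 passed, 1 higher and 2 lower with SAG, beside 11.3% of all probe sets. That median was 0.09 without SAG 1 and 0.24 without cyclopamine 2.

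Among the transcription factors of the arm, Atf4 itself had log2 signals of 14.05, 13.94 and 14.54 in vehicle, 14.78, 14.35, 14.60 and 14.62 in SAG and 14.36, 13.52 and 13.92 in cyclopamine. SAG arrays lay at or above most vehicle arrays but overlapped both other groups. The difference was 0.41 ± 0.21 (SE) against vehicle (limma adjusted p = 0.538) and 0.65 ± 0.21 against cyclopamine (adjusted p = 0.0795). Without cyclopamine 1 the latter was 0.86 and passed (adjusted p = 0.0311). ATF4 is controlled mainly at translation, which an RNA array does not measure. Ddit3, the CHOP factor of prolonged stress, had signals of 10.41, 9.98 and 11.32 in vehicle, 12.38, 10.30, 10.90 and 11.64 in SAG and 10.77, 9.75 and 10.59 in cyclopamine. Its groups overlapped throughout, and the SAG arrays alone spanned more than the vehicle arrays. The difference with SAG was 0.74 ± 0.48 (95% interval -0.32 to 1.79).

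Trib3, a pseudokinase that ATF4 and CHOP raise and that dampens the response, had signals of 10.66, 9.65 and 11.18 in vehicle, 12.59, 11.09, 11.72 and 11.75 in SAG and 11.25, 9.50 and 10.96 in cyclopamine. Only SAG 2 fell within the vehicle range. The difference with SAG was 1.29 ± 0.48 against vehicle and did not pass (limma adjusted p = 0.345), and with cyclopamine it was 0.07 ± 0.52 (95% interval -1.07 to 1.21). Atf5, a factor related to ATF4, had the highest SAG difference of the arm, 1.40 ± 0.44 (adjusted p = 0.238). All 4 of its SAG arrays, 11.74 to 13.54, lay above the 3 vehicle arrays, 10.60 to 11.19. Atf3 differed by 0.34 with SAG and 0.37 with cyclopamine. Ppp1r15a (GADD34), which brings a phosphatase to eIF2alpha, had group means of 5.24, 5.68 and 4.88, near the lower quartile of all probe sets, where array signals are compressed.

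The enzymes of serine and one-carbon synthesis did not share 1 direction. Psat1, the aminotransferase of serine synthesis, had signals of 15.13, 15.49 and 14.82 in vehicle, 15.22, 15.30, 15.12 and 14.87 in SAG and 15.84, 15.57 and 15.82 in cyclopamine. The cyclopamine arrays lay above all others. Psat1 was 1.53-fold lower with SAG than with cyclopamine (log2 -0.61 ± 0.18, limma adjusted p = 0.0478). That call was lost in 7 of 10 fits without 1 array (vehicle 1, SAG 1, 2, 3 or 4, cyclopamine 1 or 3), with adjusted p from 0.0623 to 0.143. Against vehicle the difference with cyclopamine was 0.60 ± 0.19 (adjusted p = 0.105). Phgdh, the first enzyme of the same route, differed likewise by -0.58 ± 0.22 between SAG and cyclopamine (adjusted p = 0.133), with no overlap of arrays. Mthfd2, a mitochondrial folate enzyme, was on the other side, with 1.08 ± 0.39 (adjusted p = 0.111) and overlapping arrays. Psph and Shmt2 differed by 0.27 or less in size in each of the comparisons.

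Asns, asparagine synthetase and a standard ATF4 target, had signals of 14.30, 14.01 and 14.51 in vehicle, 15.37, 14.96, 14.80 and 14.48 in SAG and 14.80, 13.04 and 14.35 in cyclopamine. The groups overlapped, and cyclopamine 2 was the lowest array. The difference with SAG was 0.63 ± 0.36 against vehicle (limma adjusted p = 0.585) and 0.84 ± 0.36 against cyclopamine (adjusted p = 0.187). Chac1, which degrades glutathione, and Sesn2, an inhibitor of mTORC1, differed by 0.76 and 0.77 with SAG against vehicle, and neither passed.

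Slc7a5, the light chain of the LAT1 importer of large neutral amino acids, had signals of 14.02, 14.01 and 14.36 in vehicle, 15.23, 14.81, 14.63 and 14.51 in SAG and 14.28, 13.56 and 14.12 in cyclopamine. All 4 SAG arrays lay above all vehicle and cyclopamine arrays. Slc7a5 was 1.75-fold higher with SAG than with cyclopamine (log2 0.80 ± 0.22, limma adjusted p = 0.0356), and the 0.66 ± 0.22 against vehicle did not pass (adjusted p = 0.262). The call was lost in 7 of 10 fits without 1 array (vehicle 1 or 2, SAG 1, 2 or 3, cyclopamine 2 or 3), with adjusted p from 0.0509 to 0.102. It was also lost with array weights (limma adjusted p = 0.0525) and with only the groups compared (0.0674). Without SAG 1 and cyclopamine 2 together the difference was 0.44 and did not pass (0.144). Slc3a2, the heavy chain that LAT1 and the cystine importer share, differed by 0.51 ± 0.20 between SAG and cyclopamine (adjusted p = 0.139), also without overlap. Slc7a1, the arginine and lysine importer, differed by 0.07 between the compounds.

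Slc7a11, the cystine-specific chain of the importer, was higher on the treated arrays of both compounds than on vehicle 1 and 2, but not than on vehicle 3. Its signals were 7.90, 7.40 and 9.56 in vehicle, 10.10, 9.06, 8.98 and 8.94 in SAG and 10.33, 9.83 and 8.56 in cyclopamine. Vehicle 3 stood within the treated range, above SAG 2, 3 and 4 and cyclopamine 3, so that groups overlapped. The difference was 0.98 ± 0.54 with SAG (limma adjusted p = 0.563) and 1.28 ± 0.58 with cyclopamine (adjusted p = 0.261).

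Cth, cystathionine gamma-lyase, had the sign opposite to the arm's median in both SAG comparisons and the same sign with cyclopamine against vehicle. Its signals were 8.89, 9.54 and 9.26 in vehicle, 9.47, 8.67, 8.73 and 8.36 in SAG and 11.47, 9.72 and 11.21 in cyclopamine. Each cyclopamine array lay above each other array, cyclopamine 2 only just. Cth was 3.97-fold lower with SAG than with cyclopamine (log2 -1.99 ± 0.39, limma adjusted p = 0.00773), the largest difference among the 35 members in the 3 comparisons. Against vehicle the difference with cyclopamine was 1.57 ± 0.42 and did not pass (adjusted p = 0.0604). Without cyclopamine 2 it was 2.11 and passed (adjusted p = 0.00379).

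**Figure D2:**
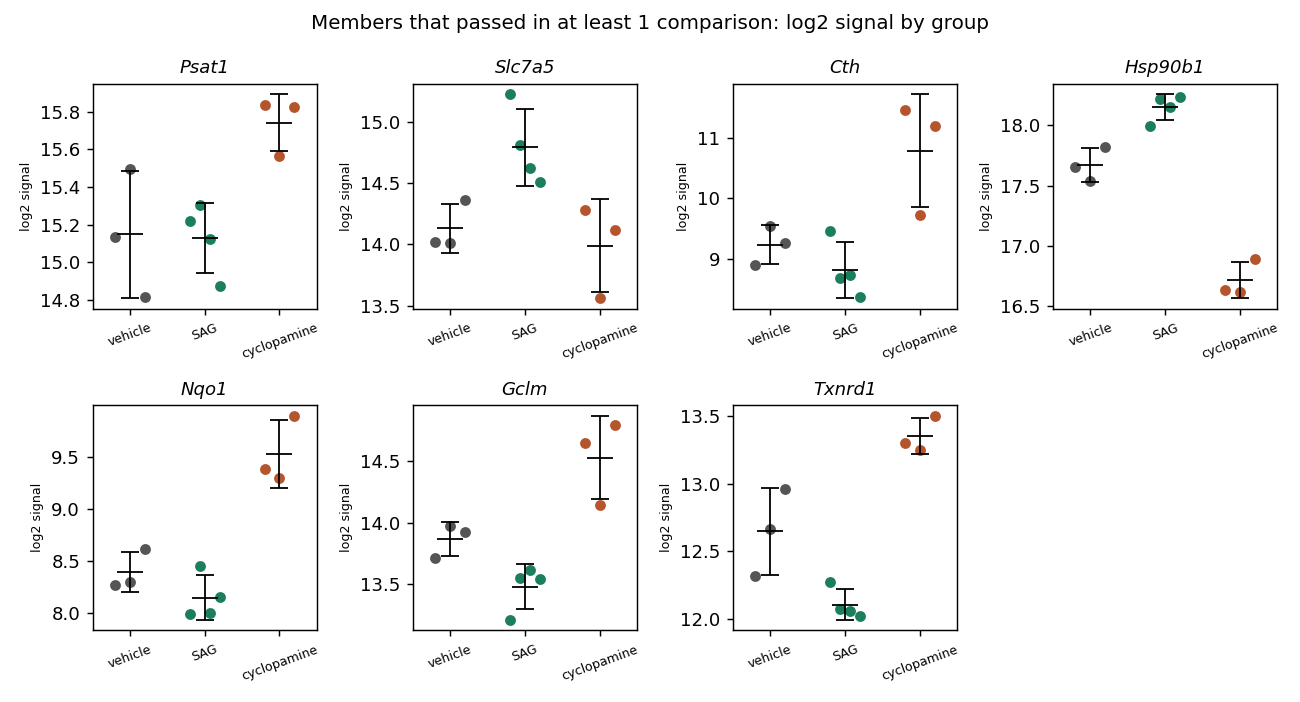
Log2 signal (y axis) on each array (points) in vehicle, SAG and cyclopamine (x axis) for the 7 members that passed in at least 1 comparison; bars are the mean ± SD of the group. Hsp90b1 runs from 16.62 to 16.89 in cyclopamine and 17.99 to 18.24 in SAG, while Nqo1, Gclm, Txnrd1 and Cth are highest in cyclopamine.

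In the ER arm, Hsp90b1 stood out. It encodes GRP94, the HSP90 chaperone of the ER lumen. Its signals were 17.66, 17.54 and 17.82 in vehicle, 17.99, 18.22, 18.15 and 18.24 in SAG and 16.64, 16.62 and 16.89 in cyclopamine. The 3 groups did not overlap and their SDs were 0.14, 0.11 and 0.15. Hsp90b1 fell 1.94-fold with cyclopamine against vehicle (log2 -0.96 ± 0.14, limma adjusted p = 0.00419). It was 2.70-fold higher with SAG than with cyclopamine (log2 1.44 ± 0.13, adjusted p = 7.38e-05). Against vehicle the difference with SAG was 0.48 ± 0.13 (adjusted p = 0.163). Both calls were kept in all 19 alternative fits, with adjusted p of at most 0.0267 and 0.00203. Signals near 18 are close to the highest on these arrays, 18.7.

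The other ER genes moved less. Hspa5 encodes BiP, the main chaperone of the ER lumen, and its promoter holds the same element as that of Hsp90b1. Its signals were 16.53, 16.48 and 17.29 in vehicle, 16.66, 16.95, 17.14 and 17.08 in SAG and 16.43, 16.33 and 16.59 in cyclopamine. SAG arrays lay above cyclopamine arrays, and vehicle 3 was the highest of all. The difference was -0.32 ± 0.22 with cyclopamine against vehicle (95% interval -0.80 to 0.17) and 0.51 ± 0.20 between SAG and cyclopamine (limma adjusted p = 0.156). Xbp1, the factor made active by IRE1 through splicing, had signals of 14.92, 14.92 and 15.28 in vehicle, 14.69, 15.03, 15.34 and 15.04 in SAG and 15.00, 15.24 and 14.89 in cyclopamine. The group means lay within 0.02 of each other, and the 95% intervals of the 3 differences reached from -0.41 to 0.41. Splicing of Xbp1 was not measured.

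For SAG against cyclopamine, arrays did not overlap for 4 of the 7 ER genes measured, all with SAG higher (Hsp90b1, Hspa5, Herpud1 and Sdf2l1), beside 10.7% of all probe sets. Herpud1, which helps clear misfolded proteins and whose promoter holds the second element, differed by 0.88 ± 0.30 (limma adjusted p = 0.0908). Sdf2l1, a partner of ER chaperones, differed by 1.06 ± 0.42 (adjusted p = 0.146). Dnajb9, a co-chaperone of BiP, differed by 0.49, and Edem1, which targets misfolded glycoproteins for removal, by -0.16. The median of the 7 was 0.19 with SAG against vehicle, -0.37 with cyclopamine against vehicle and 0.51 between the compounds. The first and the second moved with single arrays. With SAG against vehicle it was 0.52 without vehicle 3, 0.29 without SAG 1, 0.015 without SAG 3, and below 0 without vehicle 1 (-0.019) or vehicle 2 (-0.057). With cyclopamine against vehicle it was -0.056 without vehicle 3 and -0.64 without vehicle 2. Between the compounds it stayed between 0.45 and 0.61 without any 1 array. Mesenchyme and smooth muscle markers were lowest in the cyclopamine group too. Beside 2.95% of all probe sets, 4 of 9 and 5 of 6 of these markers were called lower than vehicle. Their part in the ER values was not tested.

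In the NRF2 arm, the direction was the reverse of that of Hsp90b1. Against vehicle with cyclopamine, 8 of 9 genes were positive with a median of 0.53, 2 passed beside 2.17% of probe sets called higher, and arrays did not overlap for 4 (Nqo1, Gclm, Txnrd1 and Keap1), beside 11.2% of all probe sets. With SAG, 7 of 9 were negative with a median of -0.07, and 0 passed. Arrays of Gclm and Txnrd1 did not overlap, 2 of 9 beside 6.63% of probe sets, and the median was -0.20 without SAG 4, -0.13 without SAG 1 and -0.12 without SAG 3. Its sign depended on the scaling. With each array centred on its median it was 0.016 with 5 of 9 positive, and after quantile normalization again -0.051 with 4 positive. Between the compounds 8 of 9 were lower with SAG, with a median of -0.67, and 3 passed beside 5.92% of probe sets called lower. With cyclopamine against vehicle the median stayed between 0.39 and 0.71 without any 1 array, and between the compounds from -0.91 to -0.46.

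Nqo1, a quinone reductase and standard NRF2 target, had signals of 8.27, 8.30 and 8.61 in vehicle, 7.99, 8.45, 8.00 and 8.15 in SAG and 9.39, 9.30 and 9.90 in cyclopamine. Every cyclopamine array was above every other array, while SAG and vehicle overlapped. Nqo1 rose 2.19-fold with cyclopamine against vehicle (log2 1.13 ± 0.19, limma adjusted p = 0.00895) and was 2.60-fold lower with SAG than with cyclopamine (log2 -1.38 ± 0.18, adjusted p = 0.000697). Both calls were kept in all 19 alternative fits.

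Txnrd1, the cytosolic thioredoxin reductase, had signals of 12.32, 12.66 and 12.96 in vehicle, 12.27, 12.07, 12.06 and 12.02 in SAG and 13.31, 13.25 and 13.50 in cyclopamine. The groups did not overlap and ran SAG, vehicle, cyclopamine from low to high. Txnrd1 rose 1.63-fold with cyclopamine against vehicle (log2 0.71 ± 0.17, limma adjusted p = 0.0405). That call was lost in 7 of 10 fits without 1 array (vehicle 1 or 2, SAG 2, 3 or 4, cyclopamine 1 or 3), with adjusted p from 0.0565 to 0.131. With SAG it was 2.38-fold lower than with cyclopamine (log2 -1.25 ± 0.16, adjusted p = 0.000572), which held in all 19 alternative fits. Against vehicle the SAG difference was -0.54 ± 0.16 (adjusted p = 0.196).

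Gclm, the regulatory subunit of the enzyme that starts glutathione synthesis, showed the same order of groups. Its signals were 13.71, 13.97 and 13.92 in vehicle, 13.21, 13.55, 13.61 and 13.55 in SAG and 14.64, 14.14 and 14.79 in cyclopamine. Gclm was 2.07-fold lower with SAG than with cyclopamine (log2 -1.05 ± 0.17, limma adjusted p = 0.00290). The 0.66 ± 0.19 with cyclopamine against vehicle did not pass (adjusted p = 0.0725), and without cyclopamine 2 it was 0.85 and passed (adjusted p = 0.0148). Gclc, the catalytic subunit of that enzyme, differed by -0.36 ± 0.19 between the compounds (adjusted p = 0.306).

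Hmox1, heme oxygenase, which NRF2 and other stress factors raise, did not separate the groups. Its signals were 11.70, 11.03 and 12.69 in vehicle, 12.26, 11.82, 12.46 and 12.28 in SAG and 12.48, 12.83 and 11.71 in cyclopamine. The difference was 0.39 ± 0.37 with SAG and 0.53 ± 0.39 with cyclopamine against vehicle (limma adjusted p = 0.759 and 0.515). Macrophages also express Hmox1. Of 12 macrophage markers 11 were measured, and their mean level was 10.2 to 10.6 in vehicle, 9.98 to 10.8 in SAG and 9.55 to 11.1 in cyclopamine. Cyclopamine 1 was the highest cyclopamine array for all 11. With cyclopamine against vehicle 5 were positive and 6 negative, from -1.82 to 1.70, and 0 were called. Between the compounds 2 were called higher with SAG and 0 lower, beside 5.42% and 5.92% of all probe sets. None of the 11 was below the lower quartile of all probe sets, and their part in the Hmox1 values was not tested.

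The regulators of the arm differed little. Nfe2l2, which encodes NRF2, had signals of 9.25, 9.14 and 9.20 in vehicle, 9.46, 8.96, 9.28 and 8.95 in SAG and 9.32, 9.14 and 8.99 in cyclopamine, and all groups overlapped. Its difference was -0.05 ± 0.16 with cyclopamine (95% interval -0.41 to 0.31). NRF2 is controlled mainly through protein stability, which was not measured. Keap1 differed by 0.23 ± 0.13 with cyclopamine (limma adjusted p = 0.397). Srxn1, sulfiredoxin, had the highest cyclopamine difference of the arm, 1.14 ± 0.40 (adjusted p = 0.145), but its cyclopamine arrays spread from 7.00 to 8.85. Gsr, glutathione reductase, differed by 0.52 ± 0.32.

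The order of the groups for Nqo1, Txnrd1 and Gclm, cyclopamine above vehicle above SAG in group means, is also that of the duct epithelium markers. Of those 12 markers, 7 were called higher with cyclopamine than vehicle, 2 lower with SAG than vehicle and 11 lower with SAG than cyclopamine. The shares of all probe sets called in these directions were 2.17%, 0.279% and 5.92%. The median differences of the 12 markers were 1.26, -1.35 and -2.49. The part of the epithelial share in the NRF2 values was not tested.

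**Figure D3:**
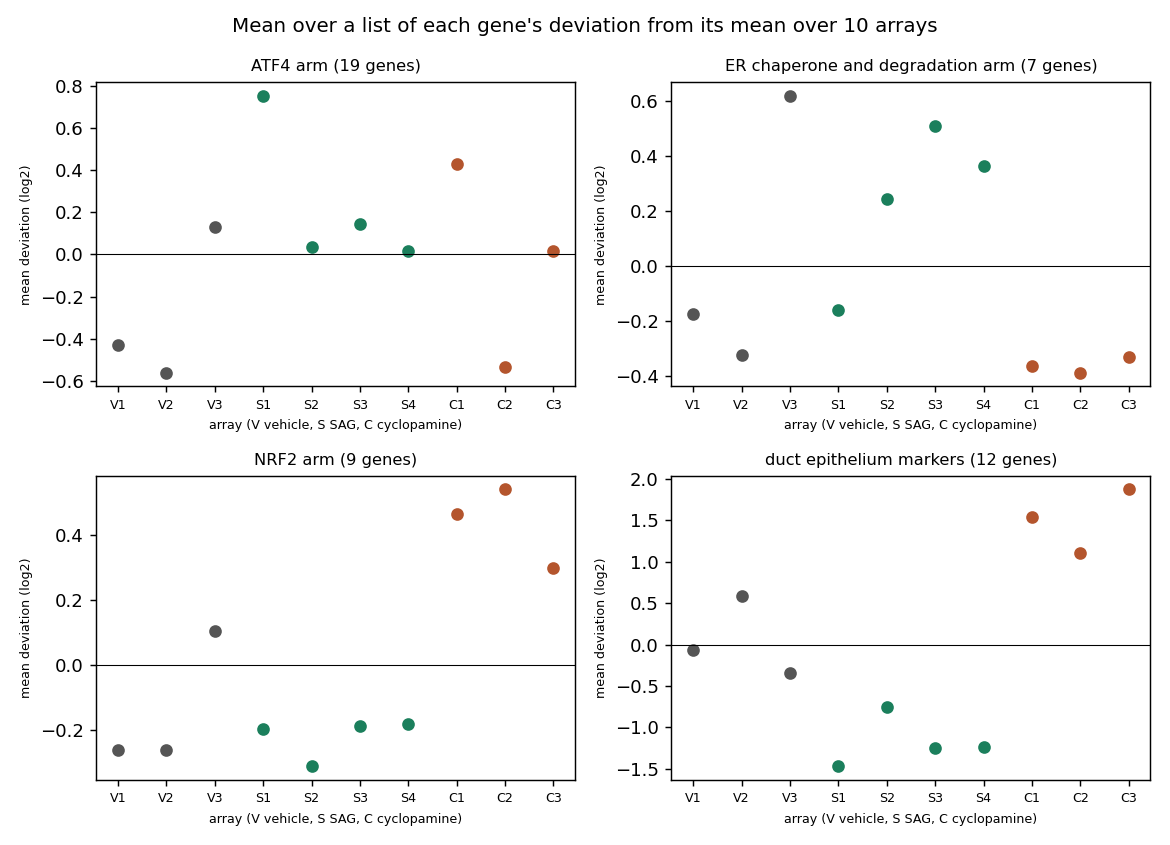
Mean deviation of each array from the gene means (y axis, log2 units) for the ATF4, ER and NRF2 arms and the duct epithelium markers, on each array (x axis, coloured by group). NRF2 arm points lie between 0.30 and 0.54 in cyclopamine and between -0.31 and -0.18 in SAG, where they overlap vehicle; the epithelium points are highest in cyclopamine too, with vehicle above SAG on every array.

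Other genes of these pathways, taken from textbook lists, were counted in the same fits. Of 14 genes of the eIF2alpha kinases and their control, such as Eif2ak3 (PERK) and Eif2ak4 (GCN2), 13 were measured and 0 passed in each of the 3 comparisons (1, 4 and 5 under an unadjusted limma p of 0.05). Of 28 further ATF4 targets, 25 were measured. With SAG against vehicle 1 was called higher, beside 0.450% of all probe sets, and with cyclopamine against vehicle 1 lower, beside 2.95%. Between the compounds 6 were called higher with SAG and 0 lower, beside 5.42% and 5.92%.

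Mthfd1l, a mitochondrial one-carbon enzyme, was the SAG call, with 0.97 ± 0.15 (limma adjusted p = 0.0152). Its vehicle arrays were 10.50, 10.71 and 10.24 and its SAG arrays 11.51, 11.33, 11.48 and 11.51. The call was lost without vehicle 1 or 3 or SAG 3 or 4, with adjusted p from 0.0509 to 0.0646. Vldlr, a lipoprotein receptor, fell by 1.28 ± 0.19 with cyclopamine (adjusted p = 0.00457) and was 2.13 ± 0.18 higher with SAG than with cyclopamine (adjusted p = 4.40e-05). Between the compounds Mthfd1l, Aldh18a1 of proline synthesis and Eif4ebp1, a translation inhibitor, differed by 1.14, 1.08 and 0.79. The remaining 2 were Gpt2 and Yars, named after their values were seen. The Aldh18a1 call was lost without cyclopamine 3 (adjusted p = 0.0521). The median of the 25 was 0.32, -0.10 and 0.31 in the 3 comparisons.

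Of 25 further ER stress genes 24 were measured, and none passed against vehicle with either compound (limma, 1 with SAG and 4 with cyclopamine under an unadjusted p of 0.05). The differences were positive for 19 of 24 with SAG and for 5 of 24 with cyclopamine. Vehicle 3 was the highest vehicle array for 19 of 24 and SAG 1 the lowest SAG array for 20. The mean deviation from the gene means was -0.16, -0.25 and 0.50 on vehicle 1 to 3 and -0.31 to -0.24 on the cyclopamine arrays. On SAG 1 it was -0.17 and on the other SAG arrays 0.19 to 0.37. Vehicle 1 and 2 thus lay near the cyclopamine arrays. Between the compounds 20 were higher with SAG and 2 passed, beside 5.42% of all probe sets called higher. Ero1a, an oxidase of disulfide formation, was higher by 1.53 ± 0.33 (adjusted p = 0.0115) and Sec24d, a coat protein of vesicles leaving the ER, by 0.75 ± 0.16 (adjusted p = 0.0127). Both calls were lost without cyclopamine 1 (adjusted p = 0.0524 and 0.0558).

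Ero1a is also induced by low oxygen. All 10 listed hypoxia genes were higher with SAG than with cyclopamine, with a median of 0.79. Beside 5.42% of all probe sets called higher, 2 passed. These were Ero1a and the peptide hormone gene Adm (1.88 ± 0.40, limma adjusted p = 0.0113, and 0.0513 without cyclopamine 1). Against vehicle all 10 were also positive with SAG, with a median of 0.80, and 2 of 10 were positive with cyclopamine, with a median of -0.26. Vehicle 3 was the lowest vehicle array for all 10. The mean deviation from the gene means was 0.15, -0.03 and -0.95 on vehicle 1 to 3. On SAG 1 to 4 it was 0.22, 0.12, 0.84 and 0.91, so SAG 1 and 2 lay near vehicle 1. Of the 10, 0 passed with SAG and 0 with cyclopamine (limma, 5 and 0 under an unadjusted p of 0.05). The part of oxygen supply in these values was not tested.

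Of 24 further NRF2 targets 22 were measured. Abcc4, an efflux pump for organic anions, had signals of 10.01, 10.06 and 9.46 in vehicle, 8.53, 9.30, 8.79 and 8.84 in SAG and 11.02, 10.76 and 11.99 in cyclopamine. Its groups did not overlap. It was the 1 gene that passed with cyclopamine against vehicle, beside 2.17% of all probe sets called higher. The difference was 1.41 ± 0.31 (limma adjusted p = 0.0282). That call was lost without vehicle 1, 2 or 3 or cyclopamine 1 or 3 (adjusted p from 0.0506 to 0.0956). Between the compounds, beside 5.92% and 5.42% of all probe sets, 4 were called lower with SAG and 0 higher. These were Abcc4 (-2.39 ± 0.29, adjusted p = 0.000429), Taldo1 of the pentose phosphate pathway, the peroxiredoxin Prdx1 and the glutathione transferase Gstm1, the last 3 at -0.80, -0.50 and -0.99. The calls of Taldo1, Prdx1 and Gstm1 were lost without cyclopamine 1 (limma adjusted p = 0.0616, 0.0744 and 0.116). The Taldo1 call was also lost without cyclopamine 3, the Prdx1 call without SAG 1 or 2 or cyclopamine 2, and the Gstm1 call without vehicle 1 or 2, SAG 1, 2, 3 or 4, or cyclopamine 3 (adjusted p at most 0.136). The median of the 22 was -0.0062 with SAG, -0.0034 with cyclopamine and -0.15 between the compounds. Of 12 cytosolic heat shock genes 10 were measured and 0 passed in any comparison (0, 0 and 1 under an unadjusted limma p of 0.05).

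Replicate spread differed by arm and group. The median SD within a group over all probe sets was 0.19 in vehicle, 0.21 in SAG and 0.22 in cyclopamine. In the ATF4 arm it was 0.34, 0.37 and 0.54, and in the ER arm 0.45, 0.27 and 0.15. In the NRF2 arm it was 0.19, 0.25 and 0.32. The ATF4 arm was above all probe sets in each group. The ER arm was above them in vehicle and SAG and below them in cyclopamine, and the NRF2 arm was equal in vehicle and above in the others.

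High and low values fell on the same arrays for many genes. In the ATF4 arm, SAG 1 had the highest SAG signal for 15 of 19 genes, vehicle 3 the highest vehicle signal for 16 and cyclopamine 2 the lowest cyclopamine signal for 16. The mean deviation from the gene means was 0.75 on SAG 1 against 0.02 to 0.14 on the other SAG arrays. On vehicle 1 to 3 it was -0.43, -0.56 and 0.13, so that vehicle 3 lay above SAG 2 and SAG 4. On cyclopamine 2 it was -0.54 against 0.43 and 0.02. In the ER arm, vehicle 3 was the highest vehicle array for 7 of 7 genes and SAG 1 the lowest SAG array for 7 of 7. Among the SAG arrays, SAG 1 was the high one for the ATF4 arm and the low one for the ER arm. Without SAG 1 and cyclopamine 2 together, the ATF4 median between the compounds was 0.01 in place of 0.50.

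**Figure D4:**
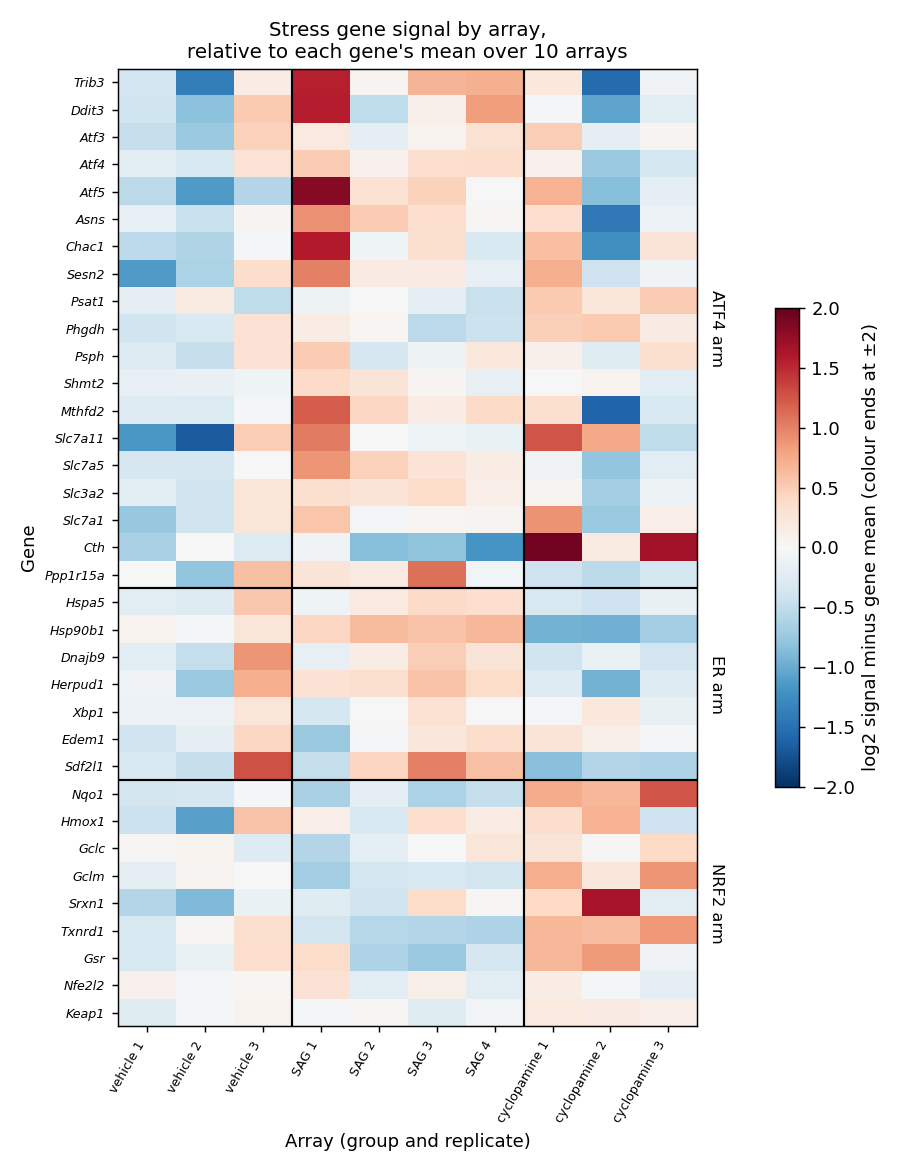
Heat map of the 35 genes (y axis, by arm) on the 10 arrays (x axis, by group), coloured by log2 signal minus the gene's mean over all arrays, with colour ends at -2 and 2. The SAG 1 column is high across most of the ATF4 arm and the lowest of the SAG columns across the ER arm, and the cyclopamine columns are high for Nqo1, Gclm and Txnrd1.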

How the data were processed

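The authors deposited 1 log2 value per probe set and array. The base is not stated and was taken as log2 because values run from 2.95 to 18.7; array medians were nearly equal, 7.55 to 7.70. The summarization, the normalization, the software and the build are not given in sources used here. Per the labels' protocols, RNA with an integrity number of at least 7 was used, at 100 ng a sample. The values are array signals, to which read depth does not apply, and each group held only 3 or 4 arrays.

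The deposited log2 values were fitted with limma 3.58.1 in R 4.3.3 (lmFit with a mean per group over all 10 arrays, eBayes, 7 residual and 3.70 prior degrees of freedom). The 3 two-sided contrasts were adjusted by Benjamini-Hochberg over 22206 probe sets at 0.05, with no filter. Errors are moderated SEs and intervals are 95%. A gene was represented by its probe set of highest mean; among members only Ddit3 had 2. Platform annotation named 19572 probe sets, and 4 list entries were matched through RefSeq synonyms. The fit was tested on simulated data.

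Members and lists were chosen with earlier results of these data known, so counts over them are descriptions. Values of every array are given for members that passed and for Trib3, Ddit3, Atf4, Asns, Hspa5, Xbp1, Nqo1, Hmox1, Slc7a11 and Nfe2l2, and up to 4 genes by smallest p among those that passed are named from each further list. Gli1, Ptch1 and Hhip served as a check of the treatments. Marker lists of mesenchyme, smooth muscle, duct epithelium, macrophages, endothelium and red cells were counted; the mean level of 6 endothelium markers was 9.80 to 10.8, 10.5 to 11.0 and 8.32 to 9.93 in vehicle, SAG and cyclopamine, and of 6 red cell markers 2 were measured, with 0 called in any comparison (limma, 1 under an unadjusted p of 0.05). Alternatives were array weights, an intensity-dependent prior, a fit of only the groups compared, median centring, quantile normalization again, a replicate block, a filter that drops the dimmest 25% of probe sets, averaging the probe sets of a gene, and 10 fits that each lack 1 array.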

Additional observations from a re-analysis of the deposited data

Results flagged for a closer look

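Single SAG arrays that stood apart from the other SAG arrays were looked for in the 4-array SAG group, over 35 members and 3 arm means (38 in all), by the gap to the nearest array as a share of the range (Dixon's 95% critical value, which chance alone passes in about 5% of groups). There were 4 such cases. Slc7a11 was 10.1 on SAG 1 against 8.94 to 9.06 on the others. Slc7a1 was 12.5 on SAG 1 against 11.88 to 11.95 on the others. Gclm was 13.2 on SAG 1 against 13.5 to 13.6 on the others. The mean deviation of the NRF2 arm was -0.31 on SAG 2 against -0.20 to -0.18 on the others. The vehicle and cyclopamine groups, with 3 arrays each, were too small to be examined in this way.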

How the results depend on the processing

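In 19 alternative fits, 90 differences were followed (30 named genes in 3 comparisons). None of the 33 that passed changed sign in any of them, and 13 of the 57 that did not pass did, the largest of 0.30 in size. A difference that passed lies several SE from 0, so its sign could hardly change. Whether calls were kept varied by gene. Those of Hsp90b1 and Nqo1 were kept in all 19 fits. Gli1 with SAG against vehicle lost its call in 8, and Slc7a5 and Gstm1 between the compounds each in 10. The count of members called for cyclopamine against vehicle, 3, was 5 with an intensity-dependent prior, with array weights and without SAG 1 and cyclopamine 2 together (an alternative added after seeing the data), each by adding Cth and Gclm, and 2 to 5 without 1 array. For SAG against vehicle it was 1 (Hsp90b1, adjusted p = 0.0371) with the intensity-dependent prior and 0 to 0 without 1 array. For SAG against cyclopamine, 7, it was 5 to 9. The median of the ATF4 arm between the compounds was 0.0099 without SAG 1 and cyclopamine 2 together and 0.094 to 0.66 without 1 array. That of the ER arm with SAG against vehicle was -0.057 to 0.52 without 1 array. The ATF4 median with SAG against vehicle was 0.37 to 0.75 without 1 array. The ATF4 median with cyclopamine against vehicle was -0.0013 to 0.46 and the ER median -0.64 to -0.056 without 1 array. The NRF2 median with cyclopamine against vehicle was 0.39 without SAG 1 and cyclopamine 2 together and 0.39 to 0.71 without 1 array. Between the compounds it was -0.45 with array weights, -0.31 without those 2 arrays and -0.91 to -0.46 without 1 array. With SAG against vehicle the NRF2 median was -0.20 to -0.059 without 1 array and 0.016 with each array centred on its median.

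The number of probe sets called for SAG against vehicle, 162, was 296 with only the groups compared, 313 with array weights, 311 without SAG 1 and cyclopamine 2 together and 45 to 339 without 1 array. For cyclopamine against vehicle, 1136, it was 566 with only the groups compared and 485 to 1471 without 1 array. For SAG against cyclopamine, 2518, it was 1843 to 2855 without 1 array. Of the SAG calls against vehicle 61.7% were higher, 72.4% with each array centred on its median, 51.0% with only the groups compared and 48.1% (without cyclopamine 2) to 86.7% (without vehicle 2) without 1 array. Of the cyclopamine calls 42.4% were higher, and 31.5% without vehicle 1. Centring on array medians moved the median of all probe sets by 0.09 for SAG against vehicle. The cause of these shifts was not tested. Replicate numbers 1 to 3 recur in each group, and same-numbered arrays correlated between -0.19 and 0.24 in their deviations from the group means. The labels do not say whether the numbers pair the arrays. These correlations cannot decide it, as differently numbered arrays were not set beside them. With the replicate number as a block, 32, 653 and 1613 probe sets passed in the 3 comparisons. Number 4 occurs only in the SAG group, so this block also removes SAG 4 from the fit. Without SAG 4 alone, 78, 976 and 2072 passed. The block ended the calls of Ptch1, Gli1 and Mthfd1l with SAG against vehicle (adjusted p = 0.0785, 0.181 and 0.128) and of Txnrd1 and Abcc4 with cyclopamine (0.0949 and 0.0901). It also ended those of Psat1, Ero1a, Adm, Prdx1 and Gstm1 between the compounds (0.167, 0.0575, 0.0650, 0.0586 and 0.111), and Trib3 passed between the compounds (1.23, adjusted p = 0.0313). Of the calls that the block ended, those of Gli1, Mthfd1l, Txnrd1, Psat1 and Gstm1 were also lost without SAG 4 alone. Those of Ptch1, Abcc4, Ero1a, Adm and Prdx1 were kept without SAG 4. A fit of only the groups compared ended the calls of Txnrd1 and Abcc4 with cyclopamine against vehicle (limma adjusted p = 0.119 and 0.0824). Between the compounds that fit ended those of Slc7a5, Prdx1 and Gstm1 (0.0674, 0.0564 and 0.0714). Leaving out SAG 1 and cyclopamine 2 together ended those of Slc7a5, Psat1, Aldh18a1 and Prdx1 (0.144, 0.0589, 0.0747 and 0.0991). Array weights ended that of Slc7a5 (0.0525) and median centring that of Prdx1 (0.0509).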
